A study of Caenorhabditis elegans with 10 samples.

Results

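The cytosolic ribosomal protein genes of Caenorhabditis elegans were read as 1 family in males and hermaphrodites across sexual maturation. Members were all genes whose symbol is rpl or rps followed by a number, with or without a further number after a point, in the Ensembl annotation of the assembly WBcel235. This gave 76 of 46589 listed genes, 45 for the large subunit and 31 for the small subunit. Reads were few for 1 of them, rpl-2, and the other 75 were tested. The rule for members used names alone and no measured value, but it was chosen with earlier results of these data known.

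Whole-animal RNA was sequenced from a strain of genotype him-5, a mutation that raises the share of males among the self-progeny of hermaphrodites. Males and hermaphrodites both carried it and were grown at 20 °C on NGM plates with OP50 bacteria. Each sex gave 1 library in each of 5 windows after hatching, of which the first was 30 to 34 h (late in L3), followed by early L4 at 36 to 40 h and late L4 at 42 to 46 h. Young adults were taken at 48 to 52 h and again at 54 to 58 h. A sex and window therefore had no replicate, and the labels name no separate cultures, so every p-value measures only the spread between these samples across age. The study asked how gene expression changes as the sexes mature.

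The cytosolic ribosome translates nuclear-encoded messages and is built from a large and a small subunit, each made of ribosomal RNA and many small basic proteins. Nearly all of these proteins are needed in 1 copy per ribosome, and their genes are among the most highly expressed and most tightly co-regulated in animals. In C. elegans the gonad is the main growing tissue of late larvae and young adults, and oocytes are stocked with ribosomes for the embryo. The X chromosome is largely silent in the germ cells of this species, and some X-linked genes for basic cell functions have an autosomal copy that serves the germ line.

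The members lay on all 6 chromosomes, with 23 on chromosome I, 9 on II, 18 on III, 16 on IV, 8 on V and 2 on X. The X-linked members were rpl-11.2 and rpl-25.1, and each has an autosomal paralogue. The genes were short, with a median of 532 exon bases (236 to 1456), against 1177 for 19518 protein-coding genes. Small nucleolar RNA genes lay within 12 members, 17 in all. Exons of 13 members overlapped another annotated gene, by 18.7% of their length in rps-20 and less in the others.

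Per length, the most abundant members were rpl-41.2 and rpl-10 of the large subunit and rps-7 and rps-9 of the small subunit. Their means over 10 libraries were 6157, 3414, 4174 and 3616 RPKM (reads scaled by exon length and TMM-scaled library size). RPL-10 joins the large subunit late in its assembly, and RPL-41 is a very short basic peptide. The least abundant tested members were rpl-37 (54.8 RPKM) and rpl-42 (5.13 RPKM) of the large subunit and rps-2 (418 RPKM) and rps-13 (655 RPKM) of the small subunit. In all, 72 of 75 tested members exceeded 100 RPKM, and 55 were among the 200 tested genes with the most reads. The 10 members with the most reads held 29.7% of the family's reads.

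Libraries held 8189325 to 27907544 reads assigned to genes. The male library of 54 to 58 h had 25.4% of its reads unaligned, against 3.31% to 13.5% in the other libraries. Genes that mark sex followed the labels, with mab-3, a male regulator, at 17.2 to 34.5 CPM in the male libraries, against at most 2.09 CPM in hermaphrodites. CPM here are a gene's reads scaled to a common library size after TMM, a correction for the make-up of each library. Of all genes, 15924 passed a filter of at least 1 CPM in at least 2 libraries.

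The family took a smaller share of gene reads in males than in hermaphrodites at every window, and the gap widened after early L4. In males the share was 8.74%, 6.80%, 4.70%, 4.44% and 4.01% in order of window. In hermaphrodites it was 10.9%, 7.78%, 8.02%, 7.65% and 7.65%. Both sexes were highest as late L3 larvae; males then had less in each later window, whereas hermaphrodites stayed within a narrow range from early L4 on. As a percentage of the hermaphrodite share, the male share was 80.1%, 87.4%, 58.6%, 58.1% and 52.5%. The difference, male minus hermaphrodite, averaged -2.67 percentage points (SD 1.09, n = 5 window pairs). It was negative in 5 of 5 pairs, and an exact two-sided sign-flip permutation test gave p = 0.0625, the smallest that 5 pairs allow. Wilson 95% intervals of a share were at most 0.0198 points to each side and cover counting error only. In bulk RNA, fewer cells of a type and less RNA per cell cannot be told apart, here and in every comparison that follows.

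**Figure D1:**
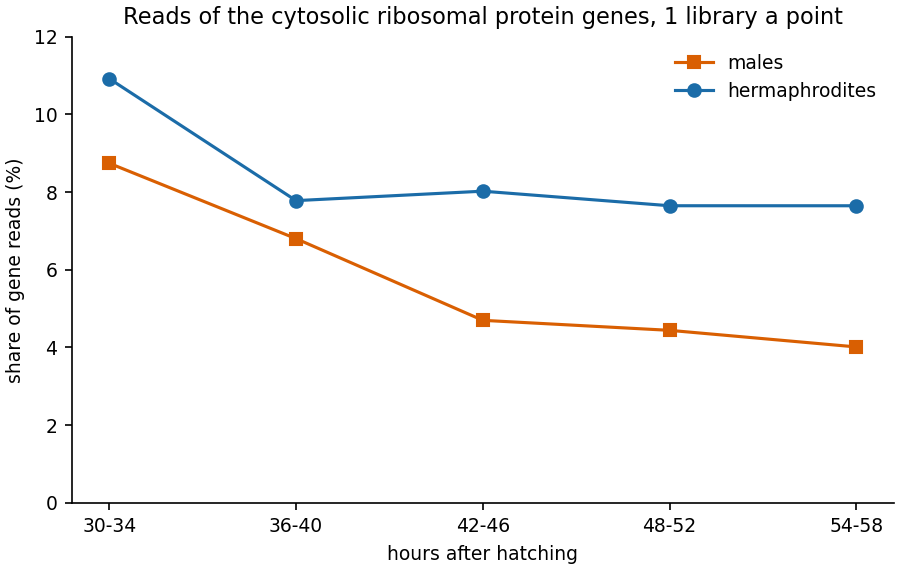
Share of all gene reads, in percent, taken by the cytosolic ribosomal protein genes (y axis) at 5 windows after hatching (x axis), with 1 library a point, males as squares and hermaphrodites as circles. Males were at 4.01% and hermaphrodites at 7.65% in the last window, against 8.74% and 10.9% in the first.

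Steps between neighbouring windows placed the male decline mostly between early and late L4. Between 36 to 40 h and 42 to 46 h, 72 of 75 members were lower in the later male library, with a median log2 ratio of CPM + 1 of -0.72. The median of all tested genes over that step was -0.01, and 50.8% of them were lower. The hermaphrodite step of the same age had 30 of 75 members lower and a median of 0.02. In hermaphrodites the large step came earlier, between 30 to 34 h and 36 to 40 h, with 72 members lower and a median of -0.57, against 66 members and a median of -0.21 in males. From 42 to 46 h to 48 to 52 h, 38 of 75 members were lower in males and 7 of 75 in hermaphrodites. Each step sets 1 library against 1 and has no test.

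By TMM-scaled CPM, most members of each sex were highest in late L3. The time of the lowest level on this scale was late in males and earlier in hermaphrodites. In males 65 of 75 members were highest at 30 to 34 h and 67 were lowest at 54 to 58 h. Hermaphrodites had 57 members highest at 30 to 34 h and 15 at 54 to 58 h, with the lowest level at 36 to 40 h for 44 members and at 42 to 46 h for 25. The TMM scaling matters here. In hermaphrodites the family's summed CPM was 75156, 88286 and 91988 in the last 3 windows, while its plain share of gene reads was nearly level. By plain share the hermaphrodite libraries were lowest in the young adult windows (7.65% in each), against 7.78% in early L4 and 8.02% in late L4.

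Window by window, the sex difference was small at late L3, near 0 in the median at early L4 and large in young adults. The median log2 ratio over the 75 members, male over hermaphrodite, was -0.39, -0.01, -0.75, -0.98 and -1.29, while all tested genes had medians between 0.09 and 0.23. Members at least 2-fold lower in males numbered 0, 1, 4, 31 and 60 of 75 in order of window. The corresponding background over all tested genes was 2.56%, 4.0%, 8.64%, 20.5% and 23.8%. The single member at 36 to 40 h was rpl-28, and at 42 to 46 h the members were rpl-24.2, rpl-28, rpl-43 and rps-27. In all, 39 members were lower in males at all 5 windows and 35 at 4, the window without a male deficit being 36 to 40 h for each of those 35. Only rpl-42 was at no window lower in males.

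**Figure D2:**
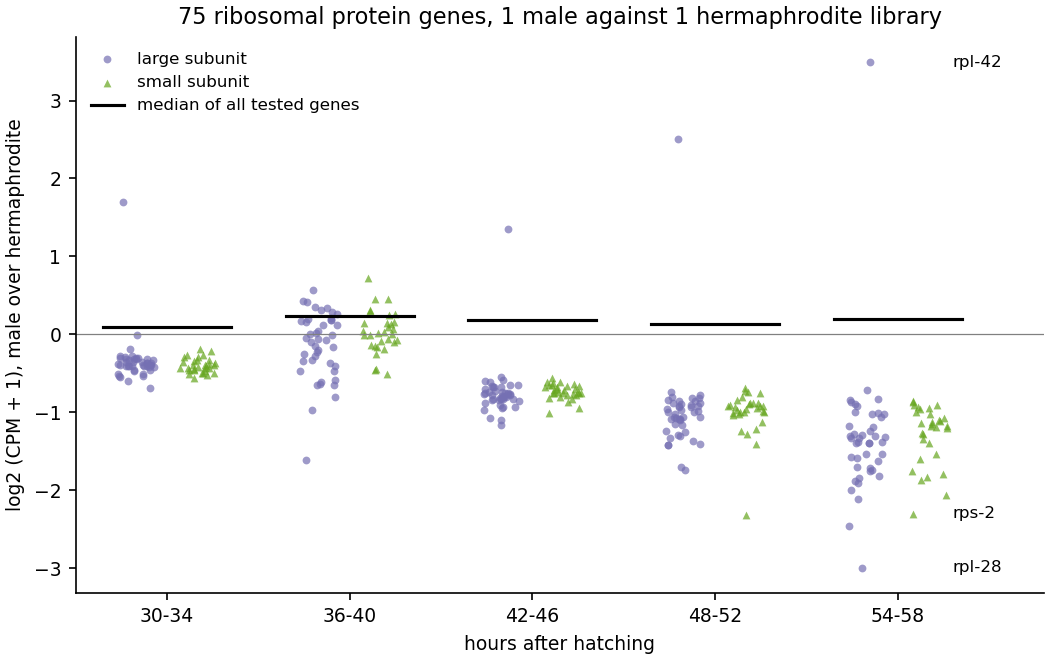
Log2 ratio of CPM + 1, male over hermaphrodite (y axis), for each of 75 ribosomal protein genes at 5 windows after hatching (x axis), large subunit as circles and small subunit as triangles, with the median of all tested genes as a bar. The members' median was -0.01 at 36 to 40 h and -1.29 at 54 to 58 h, while rpl-42 lay above 0 throughout.

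Over the whole course, fitted with window as a factor, the members were lower in males by a median of 0.68 on the log2 scale, with all genes at a median of 0.21. At an adjusted p of 0.05, 21 of 75 members were lower in males and 0 higher, against a background of 3.56% lower and 15.3% higher among all tested genes. Of the 21, 17 belonged to the large subunit (of 44 tested) and 4 to the small subunit (of 31). The family medians were -0.71 for the large and -0.63 for the small subunit, and whether the subunits differ was not tested. The unadjusted p was below 0.05 for 69 of the 75, so most members lay close to the threshold.

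The lowest value was that of rpl-28, which encodes a large-subunit protein that animals have and budding yeast lacks. Males had 191, 112, 161, 218 and 69.1 CPM of rpl-28 in order of window, against 306, 345, 341, 517 and 556 CPM in hermaphrodites. All male libraries lay below all hermaphrodite libraries. The log2 difference was -1.51 ± 0.34 (SE; adjusted p = 0.0301, edgeR's quasi-likelihood test with Benjamini-Hochberg adjustment). The next lowest was rpl-18, another large-subunit gene, with 640, 368, 382, 431 and 231 CPM in males, against 817, 641, 747, 1152 and 1269 CPM in hermaphrodites. Here too the sexes did not overlap, by the barest margin (640 CPM in late L3 males and 641 CPM in early L4 hermaphrodites), and the log2 difference was -1.19 ± 0.31 (SE; adjusted p = 0.0375). The sexes did not overlap over all windows for 8 of 75 members, against a background of 4.86%; the other 6 were rpl-16, rpl-21, rpl-24.2, rpl-33, rps-0 and rps-10.

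The small-subunit gene rps-0, whose product sits at the messenger RNA exit side, was 1 of the 4 small-subunit members called. Males had 2334, 1867, 1413, 1489 and 1054 CPM of rps-0, against 3158, 2662, 2729.9, 2964 and 3054 CPM in hermaphrodites. The sexes stood apart in every window, at a log2 difference of -0.88 ± 0.20 (SE; adjusted p = 0.0304). At the other end, rpl-41.1 and rps-23 did not pass, at log2 differences of -0.41 ± 0.24 (adjusted p = 0.236) and -0.51 ± 0.22 (adjusted p = 0.126). RPS-23 lies at the decoding centre. Leaving out 1 library changed this count strongly. It was 0 when any of the late L4 libraries (42 to 46 h) or those taken at 48 to 52 h was left out. Over all 15924 tested genes only 14 to 30 were lower in those fits. The members' count was 15 without either late L3 library or the last male library (698, 723 and 320 over all genes). It was 5 without the last hermaphrodite library (188 over all genes). Without the hermaphrodite library of early L4 it was 57, and without the male one 59 (625 and 648 over all genes). The members' median stayed between -0.83 and -0.53 in these fits. No member passed an adjusted p of 0.01, and only 18 of all tested genes were lower there. Without window in the fit 18 members were lower, against 1527 of all tested genes.

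In young adults the deficit of males extended to nearly the whole family. With 2 libraries per sex, 74 of 75 members were lower and 1 higher, against a background of 29.4% lower and 33.0% higher. The median log2 difference was -1.11 for the members and 0.31 for all genes. For the same 74 members, both male libraries lay below both hermaphrodite libraries, against 38.2% of tested genes. Leaving out 1 library left 71 to 74 members lower.

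The small-subunit gene rps-2, whose product lines the entry path of the messenger RNA, had the lowest value. Males had 165 and 211 CPM of rps-2, against 827 and 1041 CPM in hermaphrodites, a log2 difference of -2.31 ± 0.22 (SE; adjusted p = 0.000797, edgeR's quasi-likelihood test). Earlier, at 36 to 40 h, its level had been higher in the male library (408 CPM) than in the hermaphrodite library (247 CPM). Near the smaller end stood rps-24, with 541 and 486 CPM in males and 869 and 882 CPM in hermaphrodites, at a log2 difference of -0.77 ± 0.16 (SE; adjusted p = 0.00730). In both genes the 2 male libraries lay below the 2 hermaphrodite libraries, and the gap of rps-2 was the wider.

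Changes with age were fitted as a straight line over the 5 windows, in log2 units per step between windows. Hermaphrodites showed little common trend, with a median slope of -0.04 for the members and -0.15 for all genes. The sign of the members' median depended on scaling and was 0.01 with RLE size factors. In males the median slope was -0.30, with all genes at -0.01, and it stayed between -0.35 and -0.23 over 20 settings. Few single members passed: 1 was lower and 2 higher with age in hermaphrodites, against a background of 16.9% lower and 20.9% higher. The lower one was rpl-11.2, and the higher ones were rpl-11.1 and rps-2, the last at 0.41 ± 0.14 per step (SE; adjusted p = 0.0483, edgeR's quasi-likelihood test). In males 2 were lower and 0 higher, against 0.314% lower and 0.276% higher, although 70 of 75 had an unadjusted p below 0.05.

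The sexes' slopes differed for 15 members, all with the lower slope in males and 0 with the higher one, against a background of 10.2% lower and 5.6% higher. The median difference of slopes, male minus hermaphrodite, was -0.27 for the members and 0.05 for all genes. The lowest among those called was rpl-18, at -0.48 ± 0.09 per step (SE; adjusted p = 0.0294). Another was rps-4, with 1717, 1039, 994, 901 and 656 CPM in males, against 2066, 1411, 1821, 2385 and 2726 CPM in hermaphrodites, at -0.45 ± 0.08 (adjusted p = 0.0256). The count was 29 without the hermaphrodite late L3 library or 31 without the male one, and 0 on leaving out any other library. Over all 15924 tested genes, lower male slopes numbered 1292 and 1337 without those late L3 libraries and 0 to 3 without any other. The counts of 0 therefore say nothing particular of the members.

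**Figure D3:**
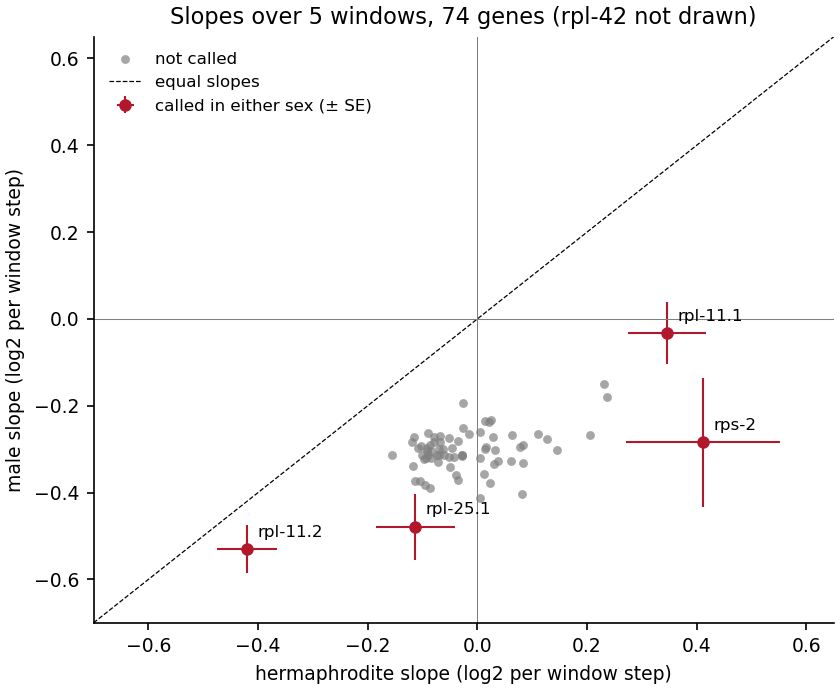
Slope over 5 windows in males (y axis) against the slope in hermaphrodites (x axis), both in log2 per window step, for 74 ribosomal protein genes (without rpl-42), with those called in either sex in red with their SE and the line of equal slopes dashed. The X-linked rpl-11.2 and rpl-25.1 had the lowest male slopes (-0.53 and -0.48), and rps-2 and rpl-11.1 the highest hermaphrodite slopes (0.41 and 0.35).

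The members called in males were the 2 X-linked ones. The male slope was -0.53 ± 0.06 for rpl-11.2 (SE; adjusted p = 0.0322) and -0.48 ± 0.08 for rpl-25.1 (SE; adjusted p = 0.0412). The 72 autosomal members other than rpl-42 had male slopes between -0.41 and -0.03. The hermaphrodite slope of rpl-11.2 was -0.42 ± 0.06 (SE; adjusted p = 0.00146), while that of rpl-25.1 was -0.11 ± 0.07 (SE; adjusted p = 0.239). The slopes of the 2 sexes did not pass as different for rpl-11.2 (-0.11 ± 0.08, adjusted p = 0.315) or rpl-25.1 (-0.37 ± 0.10, adjusted p = 0.0544). The male call of rpl-25.1 was lost with RLE factors, without a filter and when scaling left out the members. The male count was 27 without the hermaphrodite library of 30 to 34 h, and 168 of 15924 over all tested genes. It was 1 without the hermaphrodite library of 36 to 40 h or the male one of 42 to 46 h (44 and 62 over all genes). Without any of the others it was 0, with 0 to 2 over all genes.

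Both sexes read the paralogues rpl-11.1 (chromosome V, 3585312 to 3586064) and rpl-11.2 (chromosome X, 2241738 to 2242618) in a changing ratio. Their product binds the 5S ribosomal RNA of the large subunit. The X-linked rpl-11.2 had 694, 507, 294, 218 and 168 CPM in males, against 1049, 653, 485, 431 and 303 CPM in hermaphrodites. It fell with age in each sex, and the male library was lower at every window. The autosomal rpl-11.1 had 521, 695, 540.3, 597 and 507 CPM in males, against 525, 550.1, 964, 1084 and 1245 CPM in hermaphrodites. Its hermaphrodite slope was 0.35 ± 0.07 per step (SE; adjusted p = 0.00681), and its male slope was -0.03 ± 0.07 (SE; adjusted p = 0.816).

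Per length the order of the 2 copies turned with age in both sexes. At 30 to 34 h rpl-11.2 was above rpl-11.1, at 949 against 796 RPKM in males and 1435 against 802 RPKM in hermaphrodites. By 54 to 58 h rpl-11.1 was above rpl-11.2, at 775 against 229.8 RPKM in males and 1904 against 414 RPKM in hermaphrodites. The share of rpl-11.1 in the reads of both copies was 42.9%, 57.8%, 64.8%, 73.2% and 75.1% in males, against 33.3%, 45.7%, 66.5%, 71.5% and 80.4% in hermaphrodites, with Wilson 95% intervals of at most 0.951 points to each side. The sexes' log2 ratios of the copies differed by 0.17 (SD 0.48, n = 5 window pairs; exact sign-flip permutation p = 0.375, adjusted p = 0.5 over 4 pairs of paralogues).

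The other X-linked copy, rpl-25.1 (chromosome X, 4715178 to 4715796), was a minor one beside the autosomal rpl-25.2 on chromosome I. Their product lies by the exit of the peptide tunnel. Males had 88.3, 50.2, 43.2, 35.9 and 19.7 CPM of rpl-25.1, against 129, 99.5, 76.2, 96.9 and 88.5 CPM in hermaphrodites. The male level was lower at each window, and the lowest of all was the last male library. For rpl-25.2 males had 749.9, 626, 486, 501 and 449.5 CPM, against 905, 575, 833, 1264.5 and 1472 CPM in hermaphrodites. The share of rpl-25.1 in the reads of both was 10.5%, 7.42%, 8.16%, 6.69% and 4.21% in males, against 12.4%, 14.8%, 8.38%, 7.12% and 5.67% in hermaphrodites. It was lower in males at all 5 windows, by 0.39 on the log2 scale on average (SD 0.43; exact sign-flip permutation p = 0.0625, the smallest possible; adjusted p = 0.125).

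**Figure D4:**
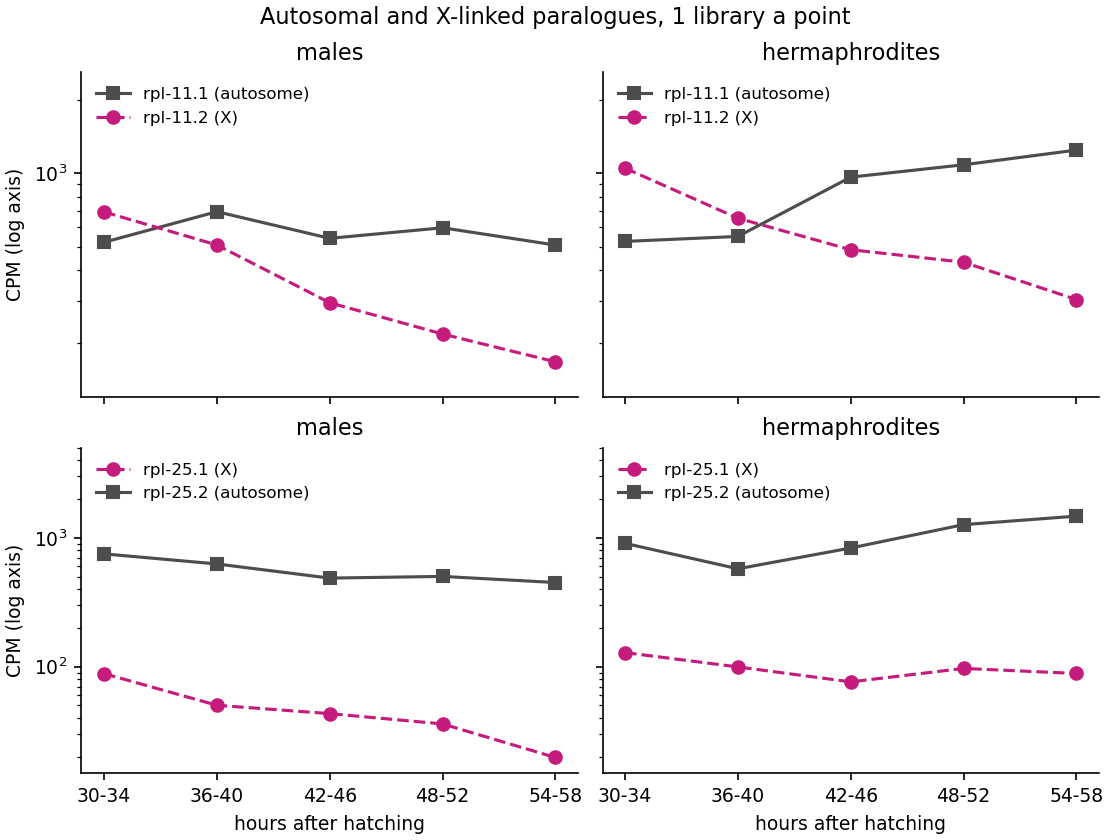
TMM-scaled CPM on a log axis (y axis) of rpl-11.1 and rpl-11.2 (top) and rpl-25.1 and rpl-25.2 (bottom) at 5 windows (x axis), males left and hermaphrodites right, X-linked copies dashed and autosomal copies solid, with 1 library a point. The lines of rpl-11.1 and rpl-11.2 cross in both sexes, and rpl-25.1 was at 19.7 CPM in the last male library, against 88.5 CPM in the hermaphrodite one.

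The remaining pairs, both on chromosome I, had a narrower range of ratios. All pairs were formed by gene name, and whether their products are interchangeable was not tested. The share of rpl-24.1 in the reads of rpl-24.1 and rpl-24.2 was between 91.3% and 94.1% in all 10 libraries. That of the minor rpl-24.2 ran from 5.92% in late L4 males to 8.67% in the last male library. In the last hermaphrodite library it was 5.93%. The share of rpl-41.1 in the reads of rpl-41.1 and rpl-41.2 was 6.97% to 8.47% in males and 6.95% to 7.30% in hermaphrodites. It was higher in males at all 5 windows, by 0.11 on the log2 scale (SD 0.10; exact sign-flip permutation p = 0.0625, adjusted p = 0.125), and for rpl-24 the difference was -0.02 (SD 0.34; p = 1.0 by the same exact permutation test). Reads that align to several places were counted for no gene, so levels of near-identical copies are uncertain.

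To read members against each other, libraries were also scaled to the summed reads of the family, a scaling chosen after the data were seen. Most members then moved little: over 10 libraries the SD of a member's log2 share of the family was below 0.2 for 57 of 75, with a median of 0.15. The steadiest was rps-18 (SD 0.042), a gene of the small-subunit head. The share of the small subunit in the family's reads stayed between 45.4% and 49.3%.

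This scaling centres the members near 0 by construction, at a median of 0.03 over the course, and moves the median of all genes to 0.91. The backgrounds include that shift, so setting the members' counts beside them says nothing of the members as a set. On this scale edgeR called 0 members that differed between the sexes over the course (background 23.9%; 2 had an unadjusted p below 0.05). In young adults 5 of 75 differed (background 58.2%). Lower in males were rps-2 (-1.12 ± 0.27, SE), rpl-43 (-0.62 ± 0.18), rps-4 (-0.56 ± 0.16) and rpl-15 (-0.45 ± 0.15), with adjusted p of 0.0170, 0.0323, 0.0309 and 0.0477, and rpl-42 was higher. With age in hermaphrodites 4 changed (background 29.0%): rps-2 rose by 0.45 ± 0.10 per step, rpl-11.1 by 0.37 ± 0.09 and rpl-25.2 by 0.27 ± 0.06, while rpl-11.2 changed by -0.40 ± 0.06. In males rpl-11.2 changed by -0.23 ± 0.06 and was the 1 called (background 12.1%; adjusted p = 0.0392). For the difference of slopes, 0 were called (background 9.78%; 1 had an unadjusted p below 0.05). Leaving out 1 library gave 2 to 8 calls in young adults and 2 to 5 in hermaphrodites, the 2 without the hermaphrodite library of 54 to 58 h in both cases.

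The heat map of shares shows how these members left the family. The share of rps-2 was above its mean by 0.86 and 1.14 (log2) in the hermaphrodite young adults and below it in the 3 earlier hermaphrodite libraries. The share of rpl-28 was uneven among males, at -1.14 in early L4 and 0.51 at 48 to 52 h, and between 0.75 and 0.79 in hermaphrodite young adults. The male libraries of early L4 and of the last window were also low for rpl-18. The cause was not tested.

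**Figure D5:**
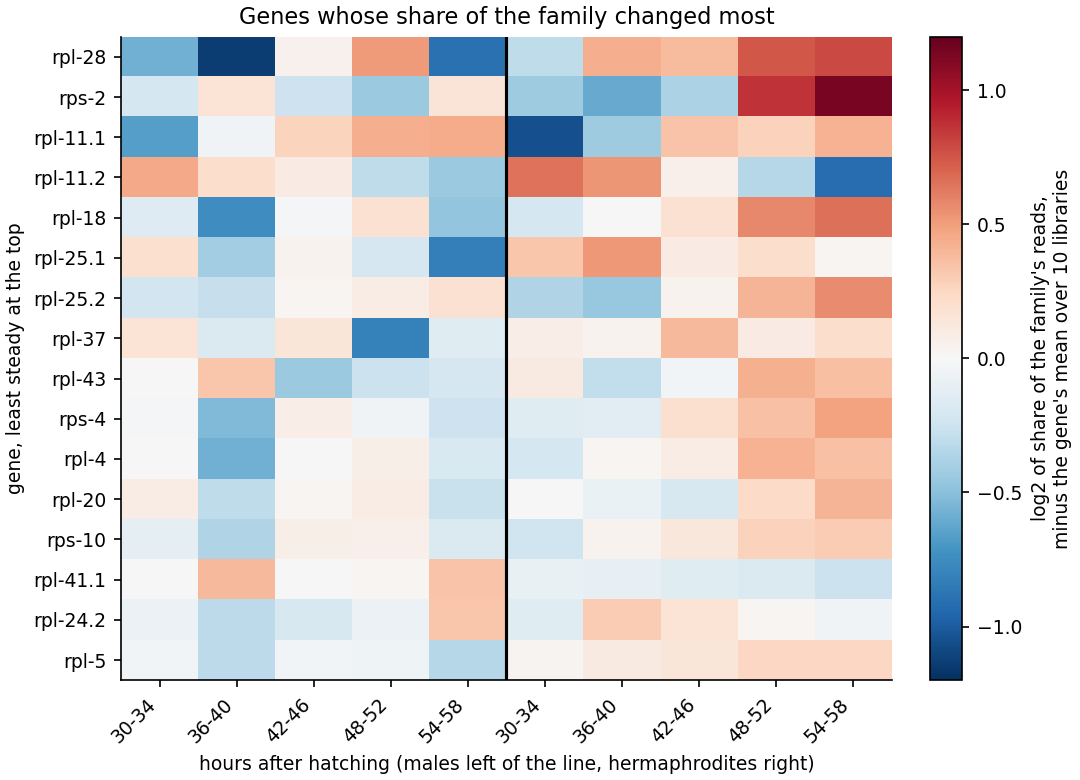
Log2 share of the family's reads minus each gene's mean over 10 libraries (colour), for the 16 least steady genes other than rpl-42 (y axis), in male libraries left of the line and hermaphrodite libraries right of it (x axis, hours after hatching). For rps-2 the hermaphrodite young adults reach 1.14, and for rpl-11.2 the last hermaphrodite library is the lowest while the first is the highest.

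Single members stood outside the family pattern at low levels. The gene rpl-42 (chromosome II, 11092713 to 11094022), with a coding length of 426 bases, had between 26 and 143 reads in each of the 5 male libraries, against 0, 32, 13, 10 and 1 reads in hermaphrodites in order of window. Males exceeded hermaphrodites at every window, and in young adults it was the 1 member called higher, at 4.74 ± 0.77 on the log2 scale (SE; adjusted p = 0.00344). Over the course it was at 3.31 ± 1.12 (SE; adjusted p = 0.0700). It failed a filter of at least 5 CPM in 5 libraries. The gene rpl-37 had 18.4, 12.7, 9.91, 5.01 and 6.71 CPM in males, against 15.2 to 22.9 CPM in hermaphrodites. It followed the family at a far lower level. The gene rpl-2 (chromosome V, 20479689 to 20480834) had 6 reads in all, 2 and 4 of them in the hermaphrodite libraries of 30 to 34 h and 48 to 52 h. Its count was 0 in each male library, which allows up to 3 reads in each, so no difference was detectable. Whether its reads were lost to multiple alignment or to the annotation used for counting cannot be seen from the counts. Its count is therefore no measure of its expression.

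Genes of the cytosolic ribosome under other names were also lower in young adult males. The acidic stalk genes rla-0, rla-1 and rla-2, the ubiquitin fusions ubl-1 and ubq-2, rpl-7A, rpl-36.A and rack-1 were lower there in 8 of 8 cases, with a median of -1.11, against 29.4% of all tested genes lower and an all-gene median of 0.31. Over the course 2 of 8 were lower (3.56% of all tested genes), rpl-7A at -1.21 ± 0.28 and rla-1 at -0.76 ± 0.21 (SE; adjusted p = 0.0312 and 0.0444). Like rpl-18, rpl-7A was low in males in early L4 (551 CPM) and in the last window (382 CPM).

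Mitochondrial ribosomal protein genes, which serve a separate ribosome, were lower in young adult males for 60 of 64, with a median of -1.08 (all tested genes, 29.4% lower and a median of 0.31). With age in hermaphrodites 5 of 64 rose (1 with library size only), a smaller share than the 20.9% of all tested genes, among them mrps-10 at 0.38 ± 0.10 per step (SE; adjusted p = 0.0166), and in males 0 of 64 passed in edgeR (20 had an unadjusted p below 0.05, and DESeq2 and limma-voom called 1 and 0).

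Most genes that build ribosomes were called as rising with age in hermaphrodites under the main scaling. Of 25 biogenesis genes, 19 rose with age in hermaphrodites and 0 fell, with a median slope of 0.22; of all tested genes 20.9% rose, and their median was -0.15. The nucleolar gene nol-10 rose by 0.42 ± 0.06 per step and eif-6, which keeps the subunits apart until the large one is ripe, by 0.37 ± 0.10 (SE; adjusted p = 0.00158 and 0.0193). The count was 6 with library size only, where 2583 of 15924 tested genes rose, so the list's share was then not far above theirs. With DESeq2 it was 24, where 4138 of 15924 rose. The list's median slope lay between 0.13 and 0.27 over 5 scalings. In males 0 of 25 passed in either direction (median -0.08; 3 with an unadjusted p below 0.05, and 0 in DESeq2 and limma-voom). Between the sexes 17 of 25 were lower in males over the course and 25 of 25 in young adults, with medians of -1.02 and -1.52, against 3.56% and 29.4% of all tested genes lower. Of the 2 ribosomal RNA genes tested, 0 passed in young adults in edgeR (0 with an unadjusted p below 0.05; 0 in DESeq2 and 1 in limma-voom), and for rrn-2.1 the young adult difference was -1.26 ± 0.57 (SE; adjusted p = 0.0996). The median of the 2 was -0.18, so the other gene lay the opposite way, above 0.

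Other parts of translation leaned the same way in young adults. Lower in males were 6 of 8 elongation, 29 of 33 initiation and 29 of 32 aminoacyl-tRNA synthetase genes, with medians of -1.27, -0.90 and -1.07. Of all tested genes 29.4% were lower and 33.0% higher there, with a median of 0.31. The elongation factor gene eef-1A.1 was at -1.49 ± 0.12 and the charging enzyme gene ears-1 at -1.74 ± 0.17 (SE; adjusted p = 0.000588 and 0.000922). The 1 initiation gene that was higher was ife-5, which encodes a cap-binding protein, at 1.75 ± 0.27 (SE; adjusted p = 0.00289). With age in hermaphrodites 10 of 33 initiation genes rose (4 with library size only, 20 with DESeq2), beside 20.9% of all tested genes, so the count says little of the list. The highest slope among those called was that of ife-3, at 0.65 ± 0.06 per step (SE; adjusted p = 0.00129). Of 7 genes of the TOR pathway, the main control of ribosome production, 6 were lower in young adult males and 6 rose with age in hermaphrodites. The shares of all tested genes were 29.4% and 20.9%. With library size only 4 and 3 of the 7 passed, against 3822 and 2583 of 15924 tested genes. Among the genes that rose was ragc-1, at 0.39 ± 0.07 per step (SE, adjusted p = 0.00347 in edgeR).

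Markers of cell types also differed between the sexes and with age, but not always in the family's direction. In males the family's summed CPM was 81607.8 in the first window and 36837.5 in the last. The male oocyte and germline sums were higher in the last window than in the first. Summed CPM of 12 oocyte genes were 193, 316, 552, 576 and 625 in males and 179.9, 606, 4673, 11592 and 14711 in hermaphrodites in order of window. For 13 germline genes they were 725, 860.2, 1044, 1161 and 1092 in males and 689, 1020.3, 2005, 3606 and 3822 in hermaphrodites. For 10 sperm genes they were 514, 976, 1562, 2310.0 and 2446 in males and 22.5 to 309.5 in hermaphrodites. In young adults 12 of 12 oocyte and 12 of 13 germline genes were lower in males, while 10 of 10 sperm, 8 of 9 neuron and 5 of 8 body wall muscle genes were higher (1 neuron gene was lower), against 29.4% of all tested genes lower and 33.0% higher. With age in hermaphrodites 12 of 12 oocyte and 13 of 13 germline genes rose and 8 of 9 neuron genes fell (1 rose), against 20.9% of all tested genes risen and 16.9% fallen. In males 0 genes of these 3 lists were called in edgeR, where the unadjusted p was below 0.05 for 6 oocyte, 1 germline and 2 neuron genes and DESeq2 called 2, 1 and 2. No listed marker was at 0 in all libraries. In young adults 1 of 9 intestine genes and 1 of 7 cuticle genes were called lower in males, and 0 higher in either list. Their median log2 differences were 0.12 and 0.99, against 0.31 for all tested genes, so neither list as a whole was lower in young adult males. Over the course 3 of 9 intestine genes were lower in males and 0 higher (all tested genes, 3.56% lower). Their median was -0.39, against 0.21 for all tested genes. Of 7 cuticle genes 0 were lower and 3 higher (15.3% of all tested genes higher), with a median of 0.90. Intestine sums were 3099, 2297, 2805, 3899 and 2080 CPM in males and 4943, 3715, 4189, 3792 and 3447 CPM in hermaphrodites. The part of these cell types in the differences of the ribosomal protein genes was not tested.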

How the data were processed

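The authors deposited raw counts of reads per gene, 1 table per library for 10 libraries, and CASAVA 1.8 and HTSeq stand in the submitters' processing notes. Per the labels' protocols, whole animals were lysed for total RNA with TRIzol, and DNA was removed. The aligner, build, annotation, HTSeq release and strand setting were not given in the sources used here. The tables name 46589 genes, of which 46180 matched 1 gene of the Ensembl annotation of WBcel235 by sequence name and 409 did not. The 5 HTSeq totals stayed out of library sizes. They held 2.18% to 3.98% (no feature), 0.321% to 0.745% (ambiguous), at most 0.0001% (low quality), 3.31% to 25.4% (unaligned) and 11.2% to 17.8% (aligned more than once) of all reads. Coordinates count from 1, and all columns were mapped to a sample.

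A gene was tested where 2 or more libraries held 1 CPM or more, 15924 in all. Tests were edgeR 4.0.16's quasi-likelihood test (R 4.3.3) on counts with TMM factors, and p-values were adjusted by Benjamini-Hochberg over all tested genes at 0.05. The replicate number is the time window, per the labels, so pairing comes from the labels. Window was a factor for the course (4 residual degrees of freedom) and the difference of slopes (3). Young adults were fitted with sex alone (2) and each sex's slope in 1 joint fit (6). For an SE, the absolute log2 difference was divided by the root of F. Single windows used CPM + 1, at least 2-fold and at least 5 CPM in the higher library. Paralogue ratios used reads + 0.5. Fits were tested on simulated data. Python 3.11.15, pandas 2.3.3 and scipy 1.17.1 made the tables and permutation tests. Alternatives were DESeq2 1.42.0, limma-voom (limma 3.58.1), other scalings, filters and thresholds, window as a block or not, and each library left out in turn. Scaling to the family was chosen after the data were seen.

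Named were members that share a number and differ after the point, the 3 highest and 3 lowest log2 values of each fit, members called against the common direction, the 2 most and 2 least abundant of each subunit, and the untested rpl-2. Of other lists, up to 2 called genes with at least 5 CPM were named by size of change, or else the most abundant. Named after their values were seen were rpl-15, rpl-16, rpl-21, rpl-33, rps-0, rps-4, rps-10, rps-18, rps-20 and rps-27. The members and the lists were chosen with earlier results of these data known.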

Additional observations from a re-analysis of the deposited data

Results flagged for a closer look

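The hermaphrodite library of 30 to 34 h lay far above the other hermaphrodite libraries in the family's share of gene reads (10.9%, against 7.65% to 8.02% in the later windows). The same held for the CPM of 8 named members, which were 4923 for rps-7, 3890.4 for rps-9, 3686 for rpl-10, 2654 for rpl-41.2, 1610.0 for rps-19, 1226.5 for rps-23, 1192 for rps-24 and 517 for rps-13. Altogether 9 of 44 groups of 5 libraries held such a distant value, where chance alone gives about 1 in 20. All 9 were this library, the members share it, and the 5 windows are different ages.

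Males had a lower slope with age than hermaphrodites in 15 members, by the test of the difference of slopes. The lowest values were those of rpl-18 at -0.48, rps-4 at -0.45 and rpl-25.2 at -0.43 in log2 per window step, and rpl-24.1, at -0.30, was among the 15 too. The hermaphrodite level of 30 to 34 h described above enters every one of these slopes, and without that library 29 members passed. Over all tested genes, 1292 of 15924 had a lower male slope without it.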

How the results depend on the processing

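Members lower in young adult males numbered 71 to 74 under every alternative run with scalings not based on the family; the 1 higher was 0 with at least 5 CPM in 5 libraries. Lower over the course were 0 at an adjusted p of 0.01 and 50 with TMM factors without the members. The count was 48 without ribosomal RNA and mitochondrial genes, 44 with no filter, 41 with DESeq2 and 53 with limma-voom. The last 3 settings each called 1 higher. Over all tested genes, lower ones numbered 18 of 15924 at an adjusted p of 0.01 and 1138 with TMM factors without the members. They numbered 1076 of 16189 without ribosomal RNA and mitochondrial genes and 1009 of 25432 with no filter. With DESeq2 they numbered 1935 and with limma-voom 1840, of 15924 each. Leaving out 1 library gave 0 to 59 members lower and 0 to 1 higher, while 14 to 723 of 15924 tested genes were lower. Where window is a factor, the partner of a library left out bears no weight. In hermaphrodites, lower slopes numbered 10 with library size only, 4 with at least 5 CPM in 5 libraries and 1 to 2 on leaving out 1 library. Over all tested genes, lower slopes numbered 3240 of 15924 with library size only and 2675 of 10223 with at least 5 CPM in 5 libraries. Both are larger shares than the members'. Higher slopes numbered 1 with either of those settings, at an adjusted p of 0.01 and with no filter. They also numbered 1 with TMM factors without the members and without ribosomal RNA and mitochondrial genes, and 1 to 10 on leaving out 1 library. Over all tested genes, higher slopes numbered 2583 of 15924 with library size only and 2815 of 10223 with at least 5 CPM in 5 libraries. They numbered 1835 to 3405 of 15924 on leaving out 1 library. Lower male slopes numbered 0 at an adjusted p of 0.01, 16 with DESeq2, 43 with limma-voom and 0 to 27 on leaving out 1 library. They numbered 1 with RLE factors, with TMM factors without the members, without ribosomal RNA and mitochondrial genes and with no filter. Over all 15924 tested genes they numbered 0 at 0.01, 977 with DESeq2, 408 with limma-voom and 0 to 168 on leaving out 1 library. With RLE factors it was 32 and with TMM factors without the members 31, of 15924 each. It was 28 of 16189 without ribosomal RNA and mitochondrial genes and 46 of 25432 with no filter. For the slope difference the count was 0 at 0.01, 4 with library size only, 3 with TMM factors without the members, 3 without ribosomal RNA and mitochondrial genes, 5 with no filter, 38 with DESeq2, 43 with limma-voom, and 0 to 31 lower and 0 to 1 higher on leaving out 1 library. Over all tested genes, 630 of 15924 were lower with library size only and 665 of 15924 with TMM factors without the members. It was 639 of 16189 without ribosomal RNA and mitochondrial genes. These shares are near the members' own, so the members show no clear excess in these settings. With no filter 988 of 25432 genes were lower, with DESeq2 2965 of 15924 and with limma-voom 2547 of 15924. At an adjusted p of 0.01 the all-gene count was 0, and it was 0 to 1337 on leaving out 1 library. Relative to the family, leaving out 1 library gave 0 to 1 calls over the course, 2 to 8 in young adults, 2 to 5 for hermaphrodite slopes, 0 to 3 for male slopes and 0 to 2 for their difference.

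In single windows, members at least 2-fold lower with library size only numbered 2 in early L4, 15 at 48 to 52 h and 28 in the last window. At 4-fold they numbered 0, 0, 1 and 5 in the last 4 windows. Without the replicate block of window, 18 members were lower over the course and 11 had a lower male slope. With a replicate block, 74 were lower in young adults. Over all 15924 tested genes these counts were 1527, 1909 and 4208. Values near 0 changed sign. The hermaphrodite slope of rpl-24.1 was -0.055 with library size only and -0.030 with at least 5 CPM in 5 libraries, and that of rpl-24.2 was 0.024 with RLE factors and with DESeq2. On leaving out 1 library these slopes ranged from -0.041 to 0.13 for rpl-24.1, -0.044 to 0.014 for rpl-24.2, -0.12 to 0.070 for rpl-41.1, -0.14 to 0.066 for rpl-41.2 and -1.61 to 0.064 for rpl-42. The male slope of rpl-11.1 was 0.027 with RLE factors and with DESeq2, 0.034 with TMM factors without the members, 0.037 without ribosomal RNA and mitochondrial genes, and -0.12 to 0.027 on leaving out 1 library; that of rpl-28 was -0.25 to 0.10. The log2 ratio of rpl-24.1 to rpl-24.2, male minus hermaphrodite, was -0.11 to 0.12 on leaving out 1 window. The cause of these changes was not tested.

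Scaling moved the median of all genes over the course to 0.11 with TMM factors without the members and 0.32 with library size only, while the members' median lay 0.89 below it on the log2 scale in both. With 1 library per sex and window, depth says nothing of the spread between animals. Few reads most limit the values of rpl-2 and rpl-42, and for rpl-2 it is unclear whether depth is the reason.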
